A study of Mus musculus with 8 samples.

Results

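The Toll-like receptors and the proteins that carry their signal were examined through 10 genes: the receptors Tlr2, Tlr3, Tlr4, Tlr7 and Tlr9, the adaptors Myd88 and Ticam1, the receptor escort Unc93b1, the kinase Irak1 and the ubiquitin ligase Traf6. They were taken by symbol from the 55367 genes of the deposited count table, and all 10 were present. Neuro2a is a mouse neuroblastoma line. CRISPRa cultures were transfected with 750 ng of sgRNA plasmid and 750 ng of plasmid for sadCas9-VP64, a catalytically inactive Staphylococcus aureus Cas9 fused to the transcriptional activator VP64. The no-sgRNA cultures are titled as treated with VP64 and no sgRNA, so by the labels both groups carry the activator and differ in the sgRNA plasmid. The labels give no amount for the controls, so other differences in the transfected DNA cannot be told. The labels list 8 samples, and counts of poly(A)-enriched RNA were used for 6 of them, the CRISPRa replicates numbered 2, 3 and 5 and the no-sgRNA replicates numbered 2, 3 and 4. The labels do not say whether replicates were separate cultures, so p-values measure the spread between these libraries, which may be technical.

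Toll-like receptors recognise microbial molecules through a leucine-rich ectodomain and signal through a cytoplasmic TIR domain. Tlr2 and Tlr4 sit at the cell surface and bind lipoproteins and lipopolysaccharide, while Tlr3, Tlr7 and Tlr9 sit in endosomes and bind double-stranded RNA, single-stranded RNA and unmethylated CpG DNA. Tlr3 signals through the adaptor TRIF, encoded by Ticam1, the other member receptors use MyD88, and Tlr4 uses both. Several of these genes are known in other cells as targets of interferon or NF-kB signalling, and many of the receptors are best known from myeloid cells.

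The guide is directed at Scn2a, a sodium channel gene, which had 231 to 279 counts per CRISPRa library and 130 to 193 per control library (adjusted p 0.0899, edgeR). Library totals ran from 29739422 to 34248514 counts. Within each group the libraries numbered 2 and 3 were closest to each other (chi-square per degree of freedom 4.73 and 5.98), and CRISPRa replicate 5 and no-sgRNA replicate 4 stood apart (14.1 to 17.1), so results are also given without these libraries where the call changes. Of 13 neuroblastoma markers, 12 passed the low-count filter. Their summed level was 2298 to 2586 CPM (counts scaled to a common library size) with CRISPRa and 2528 to 2721 CPM in the controls. Among these markers Phox2a and Hand2 were lower and Chga and Tubb3 higher with CRISPRa at the threshold used below; their part in the results was not tested. The Tubb3 call (adjusted p 0.0486, edgeR) was lost without replicate 2 or 3 of either group (adjusted p 0.106 to 0.191). Of 10 myeloid markers 1, Cd68, passed the filter, and Itgam, Adgre1 and Lyz2 had 0 counts in all 6 libraries. Tyrobp, a signalling adaptor of myeloid cells, had 11, 8 and 15 counts in CRISPRa replicates 2, 3 and 5 against 0, 6 and 1 in no-sgRNA replicates 2, 3 and 4, so its groups did not overlap, and it was filtered out. The other 5 myeloid markers had at most 14 counts in any library, and their groups overlapped. The part of these markers in the results was not tested. The summed level of the myeloid list was 1.74 to 2.25 CPM with CRISPRa and 0.852 to 1.99 CPM in the controls.

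Tlr3 showed the largest difference among the members. It stood at 45.4, 41.0 and 50.6 CPM in CRISPRa replicates 2, 3 and 5 and at 9.07, 7.77 and 10.4 CPM in no-sgRNA replicates 2, 3 and 4 (CPM normalised with trimmed mean of M-values factors). Every CRISPRa library thus lay far above every control. The means were 45.7 ± 4.81 and 9.08 ± 1.31 CPM (SD, n = 3), a 5.02-fold difference with a log2 fold change of 2.33 (standard error, SE, 0.12) and a Benjamini-Hochberg adjusted p of 1.83e-09 in edgeR's quasi-likelihood test over 15117 genes. Genes with an adjusted p under 0.05 in that test are described as changed. Tlr3 ranked behind 99 other genes by log2 fold change. In bulk RNA, a change in the share of cells that express a gene and a change in RNA per cell cannot be told apart. Tlr3 lies on chromosome 8 from 45395665 to 45411080, minus strand, on GRCm38 (mm10). Exons of Gm45542 on the opposite strand cover 7.32% of its exonic bases, and Gm45542 itself had 0 counts in all 6 libraries.

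Tlr4 and Tlr2, the surface receptors among the members, also rose. Tlr4 (chromosome 4, 66827584 to 66930284, plus strand) stood at 36.0, 36.5 and 41.6 CPM in CRISPRa replicates 2, 3 and 5 against 22.7, 23.7 and 21.6 CPM in no-sgRNA replicates 2, 3 and 4. The lowest CRISPRa library was well above the highest control. Its log2 fold change was 0.75 (SE 0.09; adjusted p 6.45e-05, edgeR), a 1.68-fold difference. Tlr2 (chromosome 3, 83836272 to 83841767, minus strand) was much less abundant, at 4.93, 6.06 and 5.36 CPM with CRISPRa and 4.13, 3.63 and 2.84 CPM in the controls. Its groups did not overlap but came close, and its log2 fold change of 0.62 (SE 0.20; adjusted p 0.0446, edgeR) passed the threshold narrowly. The Tlr2 call was lost when any library but no-sgRNA replicate 2 was left out, with adjusted p-values from 0.0567 to 0.151 in those 5 fits. Without both libraries that stand apart its log2 fold change was 0.50 (adjusted p 0.128, edgeR).

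Tlr7 and Tlr9 were not detected at a level that could be compared. Tlr7 (chromosome X, 167304929 to 167330558, minus strand) had 2 counts in no-sgRNA replicate 3 and 0 in the other libraries. Tlr9 (chromosome 9, 106222598 to 106226883, plus strand) had 4 and 2 counts in CRISPRa replicates 2 and 3 and 0 in CRISPRa replicate 5 and in every control. At these depths a count of 0 allows a level of up to 3 counts, or 0.0870 to 0.101 CPM depending on the library, for counting error only. This takes counts as independent. Low counts were often even, as all those of Tlr7, Tlr9 and Tlr6 were (56, 30, 10, 16, 22 and 28 for Tlr6). Whether 1 fragment could give 2 counts was not tested, and if so a count of 0 would allow a higher level. Neither Tlr7 nor Tlr9 passed the filter, so no fold change was computed for them. The 8 tested members had at least 90 counts in every library of both groups, so their passing did not depend on 1 group.

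Of the adaptors, Myd88 passed the threshold and Ticam1 did not. Myd88 (chromosome 9, 119335934 to 119341411, minus strand) stood at 6.38, 7.50 and 8.19 CPM in CRISPRa replicates 2, 3 and 5 and at 4.81, 5.11 and 3.50 CPM in no-sgRNA replicates 2, 3 and 4. The groups did not overlap, and the 2 libraries that stand apart held the highest CRISPRa value and the lowest control value. The log2 fold change was 0.72 (SE 0.19; adjusted p 0.0152, edgeR). Without no-sgRNA replicate 4 the adjusted p was 0.0576, without CRISPRa replicate 5 it was 0.0511, and without both it was 0.0899 at a log2 fold change of 0.48. Exons of Acaa1a on the opposite strand cover 11.3% of the exonic bases of Myd88, and because the sources used here do not give the strand setting of the count step, the Myd88 values are uncertain to that extent. Acaa1a, a peroxisomal thiolase gene, was at 23.4 ± 3.01 CPM with CRISPRa and 20.1 ± 1.55 CPM in the controls (SD, n = 3; adjusted p 0.196, edgeR).

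Ticam1 (chromosome 17, 56269319 to 56276786, minus strand) had 18.9, 17.9 and 16.8 CPM with CRISPRa and 14.9, 12.9 and 15.5 CPM in the controls. These groups did not overlap either. The log2 fold change was 0.31 with a 95% interval from 0.07 to 0.56, and the edgeR adjusted p was 0.0742. Without both libraries that stand apart Ticam1 passed, at 0.41 (adjusted p 0.0276, edgeR), and a fit with gene-length trends removed also brought it past the threshold (adjusted p 0.0420). Whether the response of Ticam1 differs from that of Myd88 was not tested.

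Promoter sequences are shown for Tlr3, for the adaptor Myd88 and, as the member with the smallest difference, for Traf6. RefSeq entries (GRCm38.p6) were matched by symbol for 7 of the 10 members: Tlr2, Tlr3, Tlr9, Myd88, Ticam1, Irak1 and Traf6. The 250 bases before the annotated start are printed 5′ to 3′ on the gene's strand, from chr8:45410381-45410630 (minus strand) for Tlr3, chr9:119340019-119340268 (minus strand) for Myd88 and chr2:101678170-101678419 (plus strand) for Traf6. Capitals mark every match to the motifs searched, which were the interferon-stimulated response element core (GAAA and again GAAA with 2 bases between), its shorter part AAANNGAAA, an NF-kB-type motif (GGGA and TTCC with 2 bases between) and the STAT-type TTCNNNGAA, on both strands.
Tlr3: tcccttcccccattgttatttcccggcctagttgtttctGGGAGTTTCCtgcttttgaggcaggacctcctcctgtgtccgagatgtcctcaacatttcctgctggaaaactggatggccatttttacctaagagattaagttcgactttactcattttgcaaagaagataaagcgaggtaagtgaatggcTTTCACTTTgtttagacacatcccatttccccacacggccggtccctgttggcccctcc
Myd88: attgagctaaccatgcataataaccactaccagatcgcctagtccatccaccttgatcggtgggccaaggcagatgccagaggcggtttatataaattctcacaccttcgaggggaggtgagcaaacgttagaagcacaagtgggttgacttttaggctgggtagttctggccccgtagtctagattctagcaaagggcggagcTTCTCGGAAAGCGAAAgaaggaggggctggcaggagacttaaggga
Traf6: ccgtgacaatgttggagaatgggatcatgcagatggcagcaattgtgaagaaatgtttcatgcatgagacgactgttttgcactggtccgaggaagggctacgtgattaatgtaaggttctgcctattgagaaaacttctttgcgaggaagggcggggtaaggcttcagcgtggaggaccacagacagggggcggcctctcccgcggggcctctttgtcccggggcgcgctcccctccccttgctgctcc
Myd88 holds GAAAGCGAAA with its first base 40 bases before the start, and the TTCTCGGAA match beginning 46 bases before the start overlaps it. Tlr3 holds no match to the interferon core, but its other strand matches AAANNGAAA (TTTCACTTT as printed, from 59 bases before the start) and its own strand holds GGGAGTTTCC from 211 bases before the start. Tlr2 holds AAANNGAAA on its other strand, and the windows of Tlr9, Ticam1, Irak1 and Traf6 hold none of the motifs searched. The Tlr2 window also holds GGGAATTCCC, which is close to the NF-kB-type motif but no match to it as written. Wider forms of that motif were not searched in any window. The motifs were searched in windows of 300 bases, 250 before and 50 after the start. Of 32851 promoters of that length, 3.44% hold the interferon core, 10.6% AAANNGAAA (which every such core contains), 1.47% the NF-kB-type motif and 8.30% TTCNNNGAA. All motifs but the core were chosen after the values were seen, and AAANNGAAA after the Tlr3 sequence was seen. The RefSeq starts of Tlr3 and Myd88 lie inside the longer spans that the count table gives these genes. A match is a run of letters and was not tested as a binding site.

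Unc93b1, which escorts the nucleic acid-sensing receptors from the endoplasmic reticulum to endosomes, rose modestly. It stood at 44.6, 41.5 and 42.4 CPM in CRISPRa replicates 2, 3 and 5 and at 34.3, 37.2 and 33.2 CPM in no-sgRNA replicates 2, 3 and 4 (chromosome 19, 3935186 to 3949340, plus strand). The groups did not overlap, and the log2 fold change was 0.30 (SE 0.08; adjusted p 0.0206, edgeR). It did not pass without CRISPRa replicate 2 (adjusted p 0.0757), without no-sgRNA replicate 2 (0.0611) or without no-sgRNA replicate 4 (0.0625).

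Downstream of MyD88, the kinase Irak1 rose and the ligase Traf6 was at nearly the same level in both groups. Irak1 (chromosome X, 74013914 to 74023918, minus strand) was the most abundant member, at 208, 196 and 210 CPM in CRISPRa replicates 2, 3 and 5 against 164, 173 and 156 CPM in no-sgRNA replicates 2, 3 and 4. Its log2 fold change was 0.32 (SE 0.06; adjusted p 0.00333, edgeR), and it passed in all 6 fits that left out 1 library. Traf6 (chromosome 2, 101678429 to 101701669, plus strand) stood at 48.8, 52.8 and 48.7 CPM with CRISPRa and at 49.2, 50.1 and 50.2 CPM in the controls. These groups overlapped, and the log2 fold change of 0.0078 (adjusted p 0.958, edgeR) had a 95% interval from -0.15 to 0.17.

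**Figure D1:**
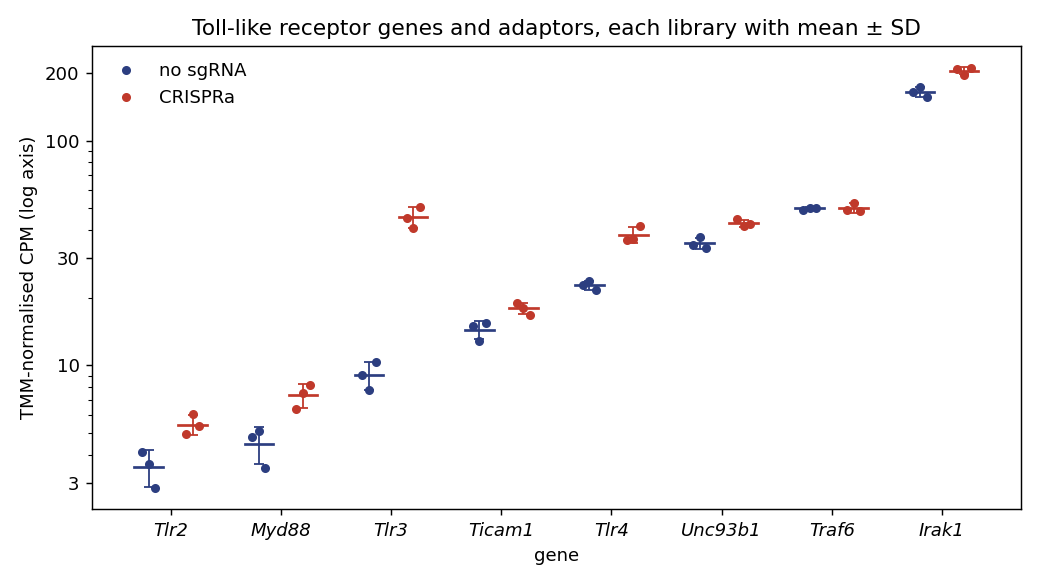
TMM-normalised CPM (log axis) of the 8 tested members in each library, with the no-sgRNA libraries in blue and the CRISPRa libraries in red; points are libraries, bars the mean and whiskers the SD (n = 3). Tlr3 goes from 9.08 to 45.7 CPM, while the Traf6 means are 49.8 CPM without and 50.1 CPM with the guide.

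In all, 6 of the 8 tested members were changed, each of them higher with CRISPRa, and none was lower. Among all tested genes 18.7% were changed, 9.47% higher and 9.25% lower. The count of changed members was 3 without no-sgRNA replicate 4 and 4 or 5 when another library was left out. Groups did not overlap for 7 of the 8, all higher with CRISPRa, against 36.4% of all tested genes in either direction and 17.7% higher. The median log2 fold change of the 8 was 0.47, against -0.0071 over all tested genes. Tlr3, Tlr4 and Irak1 passed in all 16 alternatives fitted for them, with log2 fold changes from 2.23 to 2.44 for Tlr3, 0.65 to 0.80 for Tlr4 and 0.26 to 0.36 for Irak1.

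**Figure D2:**
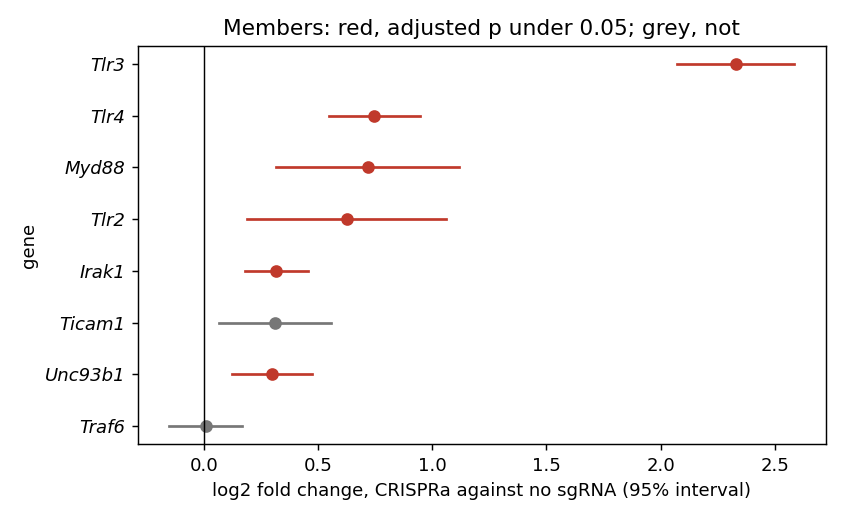
Log2 fold change of each tested member (point) with its 95% interval from edgeR's quasi-likelihood fit (line), in red where the adjusted p was under 0.05 and grey where it was not. The Tlr3 interval, 2.07 to 2.59, lies above all the others, and that of Traf6 spans 0.

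The authors' deposited table, which covers 8 samples, lists the same 8 members. In the authors' deposited table, Traf6 is the 1 member without an adjusted p under 0.05, and the other 7 pass with a positive log2 fold change, where 28.6% of all genes with an adjusted p pass, 14.8% with a positive value. The direction of that table is not stated and was read as CRISPRa against no sgRNA because Irf7, which is higher in the CRISPRa libraries, has a positive value of 6.20 there. The authors' deposited table gives Tlr3 a log2 fold change of 2.22 (SE 0.101), Tlr4 0.60 (SE 0.0917), Tlr2 0.70 (SE 0.176) and Myd88 0.64 (SE 0.178). For Ticam1 the authors' deposited table gives 0.35 with an adjusted p of 0.0122, and for Traf6 0.04 with an adjusted p of 0.672. The samples overlap with the 6 libraries, so these values are not independent.

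Levels were compared between genes per kilobase of summed exon. Without the guide the order was Irak1 at 34.8 ± 1.85, Unc93b1 at 11.5 ± 0.678, Traf6 at 6.32 ± 0.0682, Ticam1 at 4.82 ± 0.456, Tlr4 at 4.08 ± 0.189, Tlr3 at 1.74 ± 0.251, Myd88 at 1.74 ± 0.332 and Tlr2 at 1.17 ± 0.215 CPM per kb (SD, n = 3). The libraries of Tlr3 and Myd88, and those of Myd88 and Tlr2, overlapped in this order. With CRISPRa, Tlr3 took the third place at 8.77 ± 0.923 CPM per kb, above Tlr4 at 6.85 ± 0.558, Traf6 at 6.36 ± 0.299 and Ticam1 at 5.98 ± 0.354 (SD, n = 3). Tlr4 and Traf6, and Traf6 and Ticam1, overlapped there.

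The place of Tlr3 relative to other members was also compared within libraries, where scaling between libraries has no part; these ratios were chosen after the values were seen. The Tlr3 to Tlr4 ratio of per-kb levels was 1.34, 1.20 and 1.30 in CRISPRa replicates 2, 3 and 5 and 0.426, 0.350 and 0.512 in no-sgRNA replicates 2, 3 and 4. Tlr3 exceeded Tlr4 in every CRISPRa library and in no control. The Tlr3 to Ticam1 ratio was 1.47 ± 0.223 with CRISPRa and 0.360 ± 0.0220 in the controls, and the Tlr3 to Unc93b1 ratio 0.621 ± 0.0651 and 0.153 ± 0.0302 (SD, n = 3). The exact two-sided permutation p was 0.1 for each of these 3 ratios, the smallest that 3 libraries against 3 allow, and 0.133 after Benjamini-Hochberg adjustment over the 4 ratios computed. The Tlr4 to Myd88 ratio was 2.41 ± 0.186 with CRISPRa and 2.40 ± 0.400 without the guide (SD, n = 3; exact permutation p = 0.9).

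Over the 12 mouse Toll-like receptor genes of the lists, the summed level was 20.2 ± 0.756 CPM per kb with CRISPRa and 9.86 ± 0.102 CPM per kb in the controls (SD, n = 3). Tlr3 made up 43.3% ± 3.15 of that sum with CRISPRa and 17.7% ± 2.65 without the guide, and Tlr4 33.8% ± 1.48 and 41.4% ± 1.74 (SD, n = 3). Tlr12, a receptor for profilin of apicomplexan parasites, was the only tested receptor outside the members besides Tlr6, and it had 7.96 CPM with CRISPRa and 8.40 CPM in the controls (adjusted p 0.793, edgeR). Its share of the sum was 12.4% ± 2.92 with CRISPRa and 26.8% ± 0.723 without the guide (SD, n = 3). Tlr6, a partner of Tlr2, had 56, 30 and 10 counts in CRISPRa replicates 2, 3 and 5 and 16, 22 and 28 in no-sgRNA replicates 2, 3 and 4 (adjusted p 0.656, edgeR), and 12.3% of the 50-base runs in its transcripts also occur in those of other genes, mostly Tlr1, so its values are uncertain. Tlr8 and Tlr11 had 0 counts in all 6 libraries, Tlr13 at most 2, Tlr1 at most 4 and Tlr5 at most 6.

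**Figure D3:**
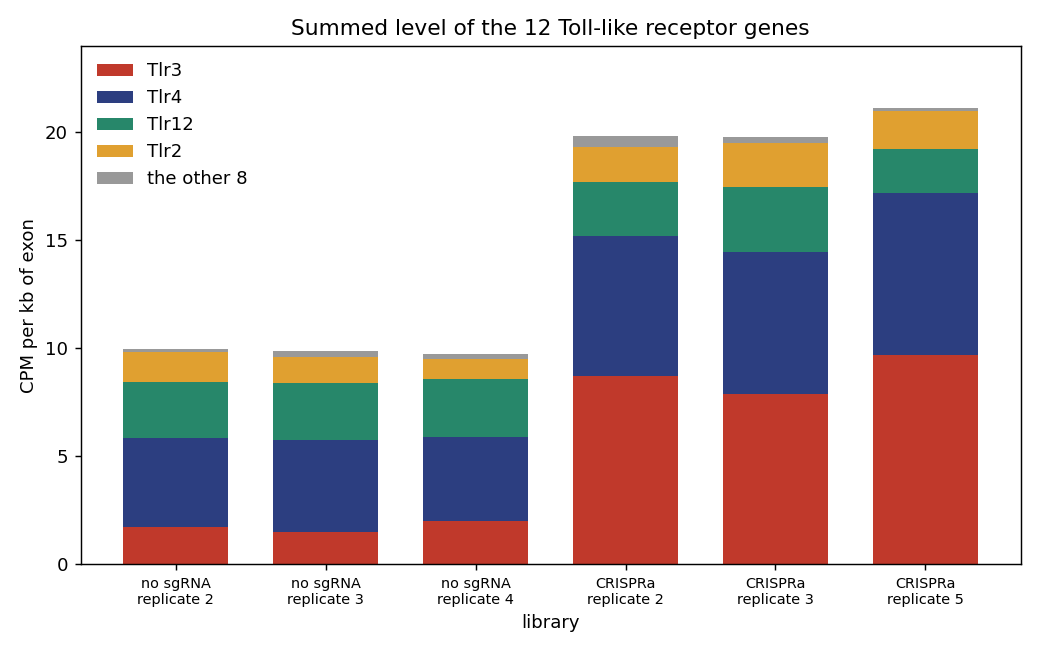
Summed level of the 12 Toll-like receptor genes in each library, in CPM per kilobase of exon, with 1 bar per library split by gene. The sum is 9.76 to 9.96 in the no-sgRNA libraries and 19.8 to 21.1 in the CRISPRa libraries, and the Tlr3 and Tlr4 segments are the ones that grow most.

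The remaining genes of the pathway were followed through a list of 51 genes, of which 41 passed the filter. Of these, 8 were higher with CRISPRa and none was lower. That is 19.5% of those tested, where 9.47% of all tested genes were higher and 9.25% lower. In the authors' deposited table, 15 of the 40 genes of the list with an adjusted p pass with a positive log2 fold change and 0 with a negative one, against 14.8% and 13.8% of all genes with an adjusted p there. The list was chosen with earlier results known, and nothing particular to it is read from these counts. The number was 3 without CRISPRa replicate 3 and 5 without no-sgRNA replicate 3. Ctsb, Ikbkb and Irf7 passed in all 16 alternatives.

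Of 8 genes for the folding, trafficking and cleavage of the receptors, 7 were tested, of which 3 rose, 4 did not pass and none fell. The 3 that rose encode lysosomal proteases, and Ctss, encoding the protease cathepsin S, had 6 counts in CRISPRa replicate 2 and 0 elsewhere. Ctsb, encoding cathepsin B, went from 280 to 387 CPM (log2 fold change 0.47, adjusted p 7.27e-05, edgeR). Ctsl had a log2 fold change of 0.27 (adjusted p 0.0218, edgeR) and Lgmn, the asparagine endopeptidase, 0.20 (adjusted p 0.0330, edgeR). Exons of other annotated genes cover 12.8% of the exonic bases of Ctsb and 26.8% of those of Ctsl, so their values are uncertain to that extent. Leaving out CRISPRa replicate 3, no-sgRNA replicate 2 or no-sgRNA replicate 3 ended the calls of Ctsl and Lgmn (adjusted p up to 0.101 and 0.131), and leaving out CRISPRa replicate 5 that of Ctsl (0.0519). The folding factors Hsp90b1 and Cnpy3 did not pass, at log2 fold changes of 0.17 and -0.19 (adjusted p 0.237 and 0.159, edgeR). Nor did the trafficking genes Ap3b1, for a subunit of the AP-3 adaptor complex, at 0.04 (adjusted p 0.693, edgeR), and Slc15a4, for an endolysosomal transporter, at 0.09 (adjusted p 0.468, edgeR). In the authors' deposited table Hsp90b1 passes, at 0.20 (adjusted p 0.0333, DESeq2), and Cnpy3, Ap3b1 and Slc15a4 do not.

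None of the 3 tested co-receptor genes (Cd14, Ly96 and Lbp) and none of the other 3 TIR adaptors (Tirap, Ticam2 and Sarm1) passed the threshold. In the authors' deposited table Sarm1 passes, at a log2 fold change of 0.35 (adjusted p 0.00990, DESeq2). Ly96, Lbp, Tirap and Ticam2 do not pass there, and Cd14 has no adjusted p. Ly96, encoding the MD-2 subunit that Tlr4 needs to bind lipopolysaccharide, was at 1.51 CPM with CRISPRa and 0.941 CPM in the controls (adjusted p 0.319, edgeR). Cd14 was at 0.635 and 0.696 CPM (adjusted p 0.905, edgeR).

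Of 14 tested kinases, ligases and scaffolds, Ikbkb (log2 fold change 0.51, adjusted p 0.00181, edgeR) and Tbk1 (0.27, adjusted p 0.0186, edgeR) rose. They encode a kinase of the NF-kB inhibitor and a kinase of IRF3. Tbk1 did not pass without CRISPRa replicate 3, no-sgRNA replicate 2 or no-sgRNA replicate 3 (adjusted p 0.0602 to 0.0963). In the authors' deposited table Irak4, Ikbkg, Peli1 and Ripk1 pass as well, with positive values, and the rest of these genes do not. Ikbke, the relative of Tbk1, was filtered out for low counts, with 9, 22 and 30 with CRISPRa against 9, 4 and 4 in the controls. Of 6 negative regulators none passed. Tnfaip3, encoding the deubiquitinase A20, had a log2 fold change of 0.55 (adjusted p 0.137, edgeR), and Nfkbia -0.13 (adjusted p 0.363, edgeR). Among these 6 only Tnfaip3 passes in the authors' deposited table, at 0.84 (adjusted p 0.00186, DESeq2).

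Among 6 transcription factors Irf7, Irf5 and Rela rose. Irf7, which acts below the endosomal receptors and is itself an interferon target, had 4186, 4819 and 5412 counts in CRISPRa replicates 2, 3 and 5 against 60, 66 and 62 in no-sgRNA replicates 2, 3 and 4. Its log2 fold change of 6.15 (SE 0.14) exceeded those of all other tested genes of the list. Irf5 had a log2 fold change of 0.72 (adjusted p 0.00933, edgeR) and Rela 0.25 (adjusted p 0.0355, edgeR). Exons of Tnpo3 on the opposite strand cover 14.1% of the exonic bases of Irf5, whose call was lost without CRISPRa replicate 3 (adjusted p 0.0501). The Rela call was lost without CRISPRa replicate 2 or 3 or no-sgRNA replicate 2 or 4 (adjusted p 0.0556 to 0.137). Irf3 and Nfkb1 did not pass, at log2 fold changes of -0.18 and -0.0086.

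**Figure D4:**
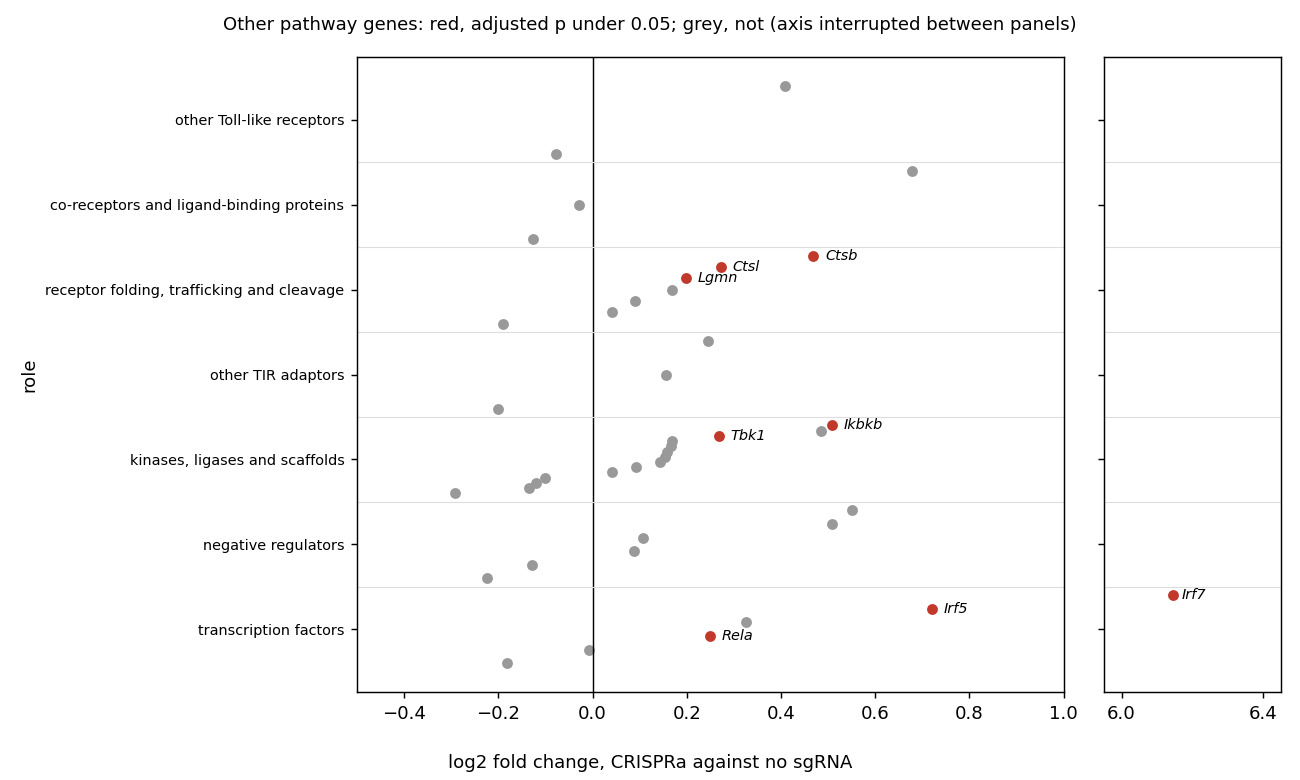
Log2 fold change of the 41 tested pathway genes outside the 10 members, by role, with 1 point per gene, red where the adjusted p was under 0.05. The horizontal axis is interrupted between the panels; Irf7 lies at 6.15 and the other 40 genes between -0.29 and 0.72.

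Of 10 genes known as outputs of Toll-like receptor signalling, 6 passed the filter and 5 of these were higher with CRISPRa, against 9.47% of all tested genes. Ccl5 (16.1 against 0.411 CPM) and Cxcl10 (49.3 against 2.14 CPM) are chemokine genes, as are Cxcl1 (4.58 against 0.853 CPM) and Cxcl2 (3.76 against 0.388 CPM), with adjusted p-values from 4.54e-12 for Cxcl10 to 0.000591 for Cxcl2 in edgeR's test. Cxcl2 had 112, 83 and 178 counts in CRISPRa replicates 2, 3 and 5 against 10, 23 and 2 in no-sgRNA replicates 2, 3 and 4. On the control libraries alone Cxcl2 would not have passed the filter, so its place among the 5 depended on the CRISPRa group. Its log2 fold change was 3.28, and it was 4.25 without no-sgRNA replicate 3 and 2.39 without both libraries that stand apart, with adjusted p-values up to 0.00515 in all alternatives run. Of the 50-base runs in its transcripts 5.84% also occur in those of other genes, mostly Cxcl3, so its values are uncertain to that extent. The cytokine gene Il6 rose from 14.3 to 24.4 CPM (log2 fold change 0.77, adjusted p 0.000664, edgeR). Il1b had a log2 fold change of -0.38 (adjusted p 0.740, edgeR), and Tnf had 6 counts in CRISPRa replicate 3, 1 in no-sgRNA replicate 2 and 0 elsewhere. Ifnb1 had 0 counts in all 6 libraries, and Il12b and Ptgs2 at most 2. These genes also respond to other pathways, and whether the receptors take part in their difference was not tested.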

How the data were processed

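Poly(A)-selected RNA from Neuro2a cultures was sequenced (source: the labels). The authors deposited whole-number counts per gene for 6 of the 8 samples, made with STAR 2.5.1b on mm10 and featureCounts, per the submitters' processing notes; annotation, strand use and multi-mapping are not given in the sources used here. The deposited table also gives each gene's exon length. A second deposited table holds the authors' DESeq2 comparison over 8 samples, per the file headers: a signal (mean normalised count), log2 fold change with SE, Wald score and p-value. These were copied, not recomputed.

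Groups came from sample titles. Counts were tested with edgeR 4.0.16 in R 4.3.3 (glmQLFit, glmQLFTest; TMM; filterByExpr defaults), adjusted over all 15117 tested genes at 0.05. SE is the log2 fold change divided by the square root of F. Alternatives were other scalings, filters, DESeq2 1.42.0, limma-voom 3.58.1, each library left out, a replicate block and other thresholds; removal of the gene-length trend (lowess, span 0.2) was added after the data were seen. Members and lists were chosen with earlier results of these data known. Named are all members and every changed list gene; list genes named beside them without a call were chosen after their values were seen. Depth limits precision to the floor given with Tlr7 and Tlr9.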

Additional observations from a re-analysis of the deposited data

How the results depend on the processing

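The number of changed genes (2829) was 1417 at an adjusted p under 0.01, and the changed members and pathway genes were then 3 and 4, where the threshold itself is the cause. Leaving out 1 library gave 1987 to 2518 changed genes, 3 to 5 changed members (3 without no-sgRNA replicate 4) and 3 to 7 changed pathway genes (3 without CRISPRa replicate 3, 5 without no-sgRNA replicate 3). The Traf6 log2 fold change of 0.0078 ran from -0.0238 (without CRISPRa replicate 3) to 0.0372 (without CRISPRa replicate 2) over the fits that left out 1 library, and was -0.0028 without no-sgRNA replicate 2 and -0.0308 with the gene-length trend removed, with adjusted p-values of at least 0.820. No other member changed sign in the alternatives run. Under other scalings, filters and tools with all 6 libraries, 6 members stayed past the threshold, and Ticam1 joined them with the gene-length trend removed; the largest Tlr2 adjusted p there was 0.0495.

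The replicate block could use only the 4 libraries numbered 2 and 3, and nothing in the labels says that a number marks a shared culture or day. Across 15117 genes, which are not independent, the gap between replicates 2 and 3 correlated at 0.0044 between the groups. With the replicate block 3170 genes, 5 members and 11 pathway genes were changed, against 2830, 5 and 11 for the same libraries unblocked. Tlr2 (adjusted p 0.112) and Myd88 (0.0720) did not pass with the block and Ticam1 (0.0120) did.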

Other observations

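Genes whose log2(CPM + 0.5) followed a member most closely over the 6 libraries were ranked among 12855 other genes with a mean of at least 1 CPM, as a description with no p. The 6 libraries are those of the 2 groups compared, and group means were not removed. A gene with a clear difference between the groups can therefore reach a high correlation through that difference. Shared regulation was not tested. For Tlr3 the 3 highest Pearson correlations were those of Gbp7 (0.9985), Rsad2 (0.9981) and Znfx1 (0.9979), whose own log2 fold changes were 5.87, 6.24 and 1.33. For Tlr4 they were those of Tpp1 (0.9993), Enc1 (0.9992) and Adgrd1 (0.9991), with log2 fold changes of 0.54, 0.50 and 0.93.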
